A study of Mus musculus with 18 samples.

Results

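The cytosolic ribosome is built from a small 40S and a large 60S subunit, each a scaffold of ribosomal RNA dressed with ribosomal proteins that are made in near-equal amounts. In the liver their mRNAs are among the most abundant, and many begin with a run of pyrimidines (a 5′ terminal oligopyrimidine, or TOP, tract) through which mTORC1 and LARP1 set their translation and stability. Several ribosomal proteins, led by RPL5 and RPL11 bound to 5S RNA, can also bind MDM2, an E3 ligase that ubiquitinates p53 and keeps its level low, and hold it back when ribosome assembly is disturbed.

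The ribosomal protein genes were taken by symbol, as Rpl or Rps followed by a digit, or Rpsa, Rplp0, Rplp1 or Rplp2. Symbols carrying -ps, which marks pseudogenes, and those starting with Rps6k, which are kinases, were dropped, 234 in all. This left 95 of the 33235 genes in each deposited table, of which 46 encode 60S proteins and 31 encode 40S proteins. These 77 are called core below. The other 18 are paralogs, retrocopies and other genes under such symbols, among them Rps19bp1, which encodes a protein that binds RPS19 and is no ribosome subunit.

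Mouse liver was compared after a GalNAc-conjugated antisense oligonucleotide (ASO) against Mdm2 and after a GalNAc-conjugated control ASO. An ASO is a short nucleic acid strand that pairs with a transcript, and GalNAc is a sugar bound by a receptor of hepatocytes, whereas the RNA came from whole liver. The Mdm2 ASO samples carry the genotype label MDM2 knockdown and the control samples carry WT. All mice were on 1 of 2 diets, HFHC, which the labels do not spell out, or CDAHFD, the usual abbreviation of a high-fat diet without choline and with defined amino acids that produces steatohepatitis in mice. No dose, treatment time, age or sex is given. On HFHC there were 3 Mdm2 ASO libraries (replicates 6-7, 9 and 10, where 6 and 7 held identical values and were counted once) and 4 control ASO libraries (replicates 1, 2, 4 and 5). On CDAHFD there were 5 Mdm2 ASO libraries (replicates 6 to 10) and 5 control ASO libraries (replicates 1 to 5). The labels do not say that each sample is a separate animal, so p-values measure the spread between these samples, which may be in part technical.

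Libraries held 17.8 to 18.8 M gene-assigned reads on HFHC and 22.4 to 31.5 M on CDAHFD. Values are normalized counts, that is read counts scaled by 1 factor per library, and each diet's table was scaled separately, so levels are compared within a diet. A gene rose or fell where limma's moderated test on log2(value + 0.5) gave a Benjamini-Hochberg adjusted p under 0.05 over all genes tested. Mdm2 itself had 420, 362 and 304 normalized counts in Mdm2 ASO livers on HFHC, against 907, 954, 963 and 956 in control ASO livers. On CDAHFD it had 861, 566, 646, 564 and 598 in Mdm2 ASO livers, against 1443, 1572, 1516, 1650 and 1644 in control ASO livers. The groups did not overlap on either diet, with log2 fold changes of -1.39 ± 0.11 and -1.29 ± 0.11 (SE). An exact two-sided permutation test gave p = 0.0571 on HFHC and p = 0.00794 on CDAHFD, each the smallest that the design allows. None of the 10 hepatocyte markers was at 0 in all libraries of a group.

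Start regions from RefSeq are shown for 6 of the members that rose or fell on a diet. Their build, GRCm38.p6, is older than the GRCm39 named in the submitters' processing notes. Rpl3 and Rpl23a are not among the 6. Start regions were chosen because the TOP tract is the feature through which these mRNAs are known to be handled together. Each line gives 15 bases before and 15 bases after the first listed start, 5′ to 3′ on the gene's strand. Capitals mark the longest run of at least 5 C or T letters that overlaps the 5 bases on either side of the start.
Rps27 (chr3:90213634-90213663, minus strand): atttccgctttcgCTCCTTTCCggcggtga
Rps23 (chr13:90923107-90923136, plus strand): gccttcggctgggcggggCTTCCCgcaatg
Rps4x (chrX:102189377-102189406, minus strand): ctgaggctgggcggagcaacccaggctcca
Rps27l (chr9:66946071-66946100, plus strand): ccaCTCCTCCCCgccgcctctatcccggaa
Rpl10a (chr17:28328456-28328485, plus strand): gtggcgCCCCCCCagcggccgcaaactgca
Rps3 (chr7:99483695-99483724, minus strand): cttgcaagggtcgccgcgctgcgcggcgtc
The marked runs of Rps27l and Rpl10a lie wholly before the listed start, so they are not part of a transcript from that start. The windows of Rps4x and Rps3 held no such run. Rps27l and Rpl10a each have a further listed start, not shown, whose window held no such run either, and a listed start can lie some bases from the one used in liver. RefSeq start regions were listed for 57 of the 77 core members, in 67 regions. A pyrimidine run by this overlap rule was found in 34 of these 67 regions (50.7%), against 31.4% of all 32851 listed regions. The rule also counts runs that end before the start, so it does not count TOP tracts as such. Over the whole 300-base region, on either strand, CTTCCG (an ETS factor core) was found in 62.7% of core regions and 16.9% of all regions. AAGATGGC, a core of the YY1 site, was found in 10.4% and 2.75%, CACGTG (the E-box bound by MYC) in 11.9% and 7.15%, and TATAAA in 8.96% and 13.6%. Core members that rose on HFHC had a pyrimidine run by the overlap rule in 45.8% of 24 regions. The other core members had it in 53.5% of 43 regions. A match describes letters and not a bound site.

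On HFHC, the ribosomal protein mRNAs were higher in Mdm2 ASO livers. Of the 77 core genes, 31 rose and 0 fell, and 66 had a positive log2 fold change. Over all 17441 genes tested on this diet, 16.8% rose and 13.8% fell. The core median was a log2 fold change of 0.20, or 15.2%, against -0.01 over all genes tested. Both subunits took part, with 15 of 31 40S genes and 16 of 46 60S genes past the threshold, and medians of 0.22 and 0.19. At an unadjusted p under 0.05, 43 core genes were higher and 1 was lower. In either direction these were 44 of 77 core genes, against 7180 of all 17441 genes tested. edgeR on recovered reads called 25 higher and 0 lower, and DESeq2 called 36 higher and 1 lower. Counts over all genes by edgeR and DESeq2 are not given here for any comparison. All Mdm2 ASO libraries lay above all control ASO libraries in 43 core genes and below them in 0, against 20.7% above and 18.0% below over all genes tested. The count of core genes that rose was lower with certain single libraries left out. It was 14 without control ASO replicate 4 and 16 without control ASO replicate 5. Without Mdm2 ASO replicate 6-7 it was 20, and without Mdm2 ASO replicate 9 it was 14. A fit with fewer libraries also has less power for every gene. The share of all genes that rose in these fits is not given here. Scaling by library size moved the calls over all genes to 3382 that rose and 1460 that fell, and quantile normalization moved them to 2482 and 3725, against 2932 and 2399. Under these 2 scalings 46 and 38 core genes rose and 0 and 1 fell.

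**Figure D1:**
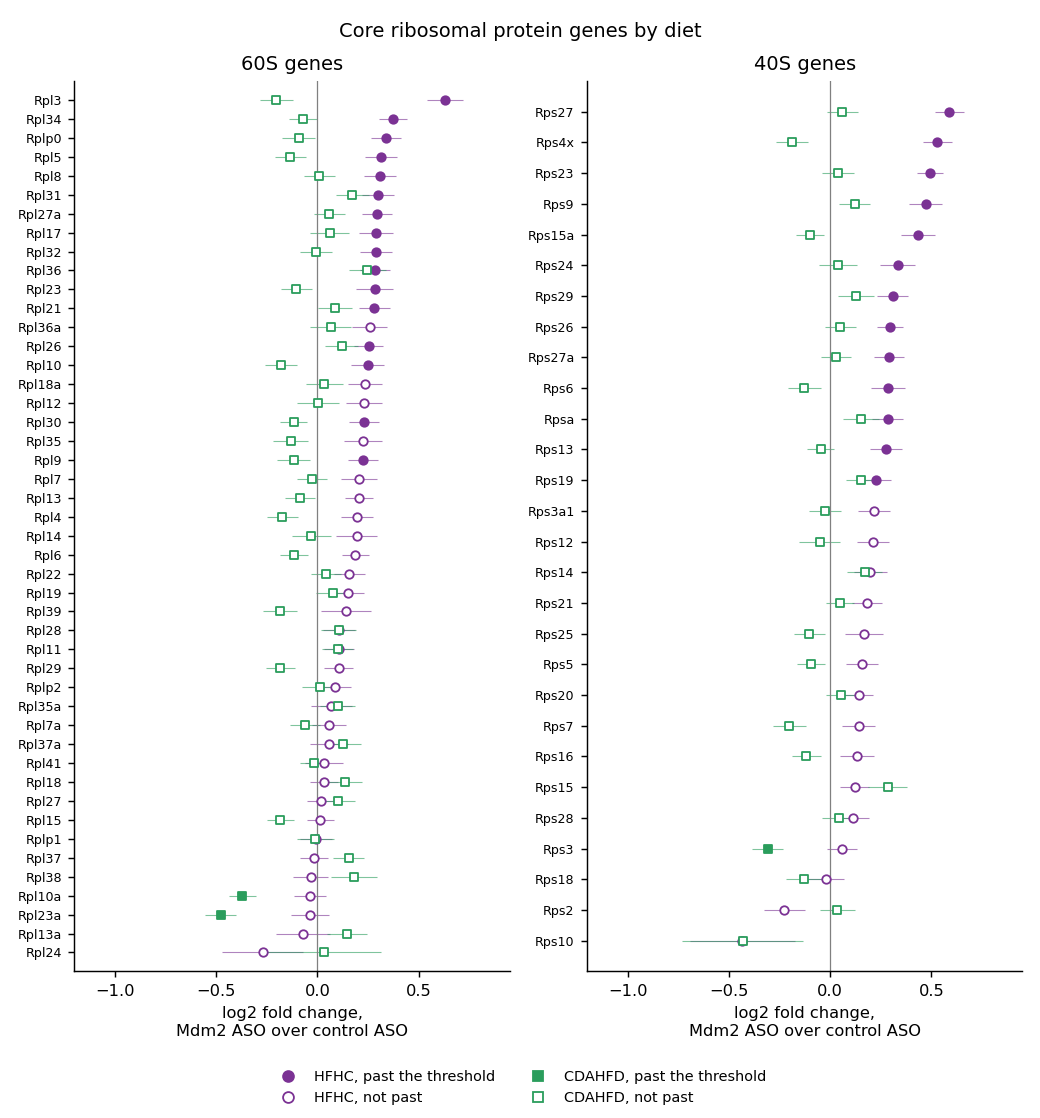
Log2 fold change, Mdm2 ASO over control ASO, of 60S and 40S core genes on HFHC (circles) and CDAHFD (squares), with bars of 1 SE and filled symbols past the adjusted p threshold of 0.05. A few core genes are not drawn. On HFHC all filled circles lie right of 0, and on CDAHFD 3 filled squares lie left of 0 and none right.

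As a share of all reads, the core genes took 1.81%, 1.77% and 1.61% in the 3 Mdm2 ASO libraries on HFHC, against 1.52%, 1.36%, 1.34% and 1.43% in the 4 control ASO libraries. The 2 groups did not overlap, with means of 1.73% ± 0.10 (SD, n = 3) and 1.41% ± 0.08 (SD, n = 4). The 60S genes averaged 0.987% in Mdm2 ASO livers and 0.804% in control ASO livers, and the 40S genes 0.743% and 0.606%. Albumin mRNA averaged 7.06% of reads in Mdm2 ASO livers and 4.44% in control ASO livers, and mitochondrially encoded mRNAs 3.96% and 6.78%. With both kept out of the total, the core share averaged 1.95% ± 0.15 and 1.59% ± 0.08. In bulk liver, fewer cells of a type and less RNA per cell cannot be told apart.

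**Figure D2:**
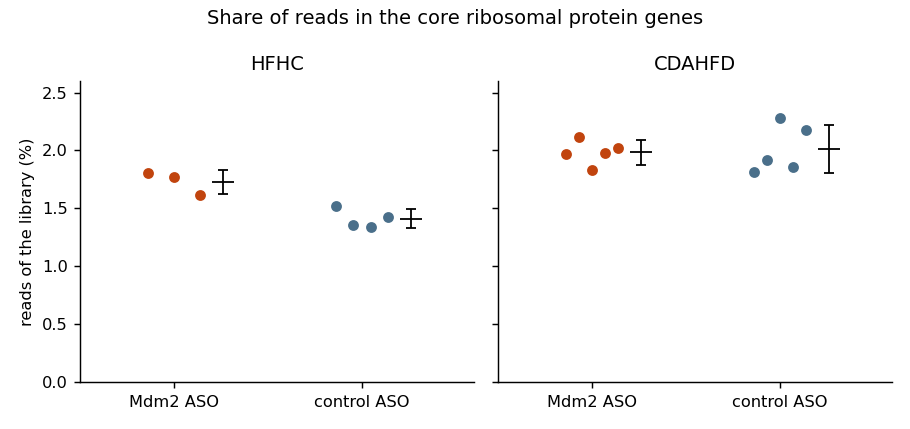
Reads in the 77 core genes as a percentage of all reads of a library, by ASO and diet, 1 point per library, with the mean and SD in black. On HFHC the Mdm2 ASO libraries sit at 1.61 to 1.81% and the control ASO libraries at 1.34 to 1.52%, and on CDAHFD the 2 groups overlap.

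Among the 40S genes, Rps27 changed most on HFHC. It encodes a zinc finger protein of the small subunit. It had 3269, 3404 and 2986 normalized counts in Mdm2 ASO livers, against 2065, 2203, 2101 and 2182 in control ASO livers, a log2 fold change of 0.59 ± 0.07 (SE, limma adjusted p = 2.6e-04). Rps4x, the X-linked copy of the 40S protein gene S4, had 6562, 6281 and 6495 in Mdm2 ASO livers, against 4588, 4580, 4307 and 4390 in control ASO livers. Its log2 fold change was 0.53, with a limma adjusted p of 4.6e-04. The groups stood well apart for both genes. Rps23, whose product lines the decoding centre, had 3466, 3442 and 3388 in Mdm2 ASO livers and 2536, 2396, 2363 and 2461 in control ASO livers, a log2 fold change of 0.49. Rps9 rose by a log2 fold change of 0.47, Rps15a by 0.43 and Rps26, whose product sits at the mRNA exit channel, by 0.29. Each of these 6 genes stayed past the threshold in all 17 alternatives run on HFHC. Further 40S genes that rose included Rps24, Rps29, Rps27a, Rps6, Rpsa, Rps13 and Rps19. RPS6 is the substrate of the S6 kinases, and Rps27a encodes a fusion of ubiquitin with a 40S protein.

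Among the 60S genes, Rpl3 led. Its product reaches towards the peptidyl transferase centre. It had 5132, 5042 and 5346 normalized counts in Mdm2 ASO livers, against 3409, 3595, 2911 and 3498 in control ASO livers, a log2 fold change of 0.63 ± 0.09 (SE, limma adjusted p = 6.2e-04). Rpl34 had 2658, 2495 and 2385 in Mdm2 ASO livers and 1955, 1949, 1855 and 2005 in control ASO livers, a log2 fold change of 0.37. Neither gene's groups overlapped. Rplp0, Rpl5, Rpl8, Rpl31, Rpl27a, Rpl17, Rpl32, Rpl36, Rpl23, Rpl21, Rpl26, Rpl10, Rpl30 and Rpl9 also rose, with the call for Rpl10 kept in 9 of 17 alternatives and lost with each single library left out. Of the 3 stalk genes of the 60S subunit, Rplp0 passed the threshold and Rplp1 and Rplp2 did not, and differences between them were not tested. Rplp0, the stalk base, had 8291, 7808 and 8166 in Mdm2 ASO livers and 6403, 6275, 6502 and 6367 in control ASO livers. Rplp1, an acidic stalk protein, had 6532, 6753 and 6871 in Mdm2 ASO livers and 6794, 7193, 6508 and 6530 in control ASO livers, and its groups overlapped. Rplp2, the other acidic stalk protein, had 2810, 2955 and 3107 in Mdm2 ASO livers and 2865, 2830, 2915 and 2525 in control ASO livers, a log2 fold change of 0.09 with a 95% interval of -0.09 to 0.26.

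The 11 core genes with a negative log2 fold change on HFHC included Rplp1, Rpl37, Rpl38, Rpl10a, Rpl23a, Rpl13a, Rpl24, Rps18, Rps2 and Rps10, and none of the 11 passed the threshold. Under library-size scaling the signs of those nearest 0 turned positive, among them Rpl37, Rpl10a and Rpl23a. Rpl24 averaged 52.1 normalized counts in Mdm2 ASO livers and 63.9 in control ASO livers, Rps10 averaged 53.7 and 68.9, and Rpl13a averaged 301 and 314, the 3 lowest of the core genes. Ribosomal protein genes have many near-identical processed copies in the genome. How reads shared with such copies were counted is not given in the sources used here, so levels of members with close copies are uncertain. The dropped -ps symbols held 0.198 to 0.256% as many reads as the members in Mdm2 ASO libraries and 0.194 to 0.250% in control ASO libraries over both diets.

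Per kilobase of the principal transcript, the highest 60S levels in Mdm2 ASO livers on HFHC were those of Rplp1 (13464 ± 345 normalized counts per kb), Rpl10 (10170 ± 428) and Rpl7a (7635 ± 468). The highest 40S levels there were those of Rps18 (10851 ± 994), Rps2 (10714 ± 847) and Rps15 (9560 ± 194). In control ASO livers on HFHC the same 60S genes led, with 13540 ± 638, 8562 ± 305 and 7326 ± 346, and Rps2 (12526 ± 736) stood ahead of Rps18 (10977 ± 509) and Rps15 (8797 ± 342). Errors are SDs with n = 3 and n = 4. Rps18 and Rps2 did not differ beyond their spread in Mdm2 ASO livers. On CDAHFD, Rplp1 again led the 60S genes, with 30747 ± 2881 in Mdm2 ASO livers and 30919 ± 1846 in control ASO livers (SD, n = 5 each), followed by Rpl36 and Rpl41. The median 60S level on HFHC was 3928 per kb in Mdm2 ASO livers and 3331 in control ASO livers, and the median 40S level 5167 and 4244. Where transcripts ranked equally the longest was taken, which gave 5179 bases for Rps15a and 3706 for Rps20. Rps15a thus had 415 per kb in Mdm2 ASO livers on HFHC at a mean of 2149 normalized counts. Levels per kb and their order depend on this choice of transcript.

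On CDAHFD the same oligonucleotide left the core genes spread about 0. None of the 77 rose, 3 fell, 41 had a positive log2 fold change and 36 a negative one, with a median of 0.01. Over all 16803 genes tested on this diet, 6.12% rose and 6.86% fell. At an unadjusted p under 0.05, 2 core genes were higher and 11 were lower. In either direction these were 13 of 77 core genes, against 4734 of all 16803 genes tested. edgeR called 0 higher and 3 lower, and DESeq2 called 2 higher and 6 lower. Without control ASO replicate 3 the calls were 2 higher and 5 lower, and without Mdm2 ASO replicate 9 there was 1 higher. All Mdm2 ASO libraries lay above all control ASO libraries in 0 core genes and below them in 8, against 4.95% above and 5.62% below over all genes tested. The core share of reads was 1.97%, 2.12%, 1.83%, 1.98% and 2.02% in Mdm2 ASO libraries and 1.82%, 1.92%, 2.28%, 1.86% and 2.18% in control ASO libraries, and the groups overlapped.

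The 3 core genes that fell on CDAHFD were Rpl23a, Rpl10a and Rps3. Rpl23a, whose product lies at the exit tunnel where signal recognition particle docks, had 1924, 1949, 1619, 2035 and 2055 normalized counts in Mdm2 ASO livers, against 2591, 2728, 2642, 2727 and 2612 in control ASO livers. Its log2 fold change was -0.48 ± 0.08 (SE, limma adjusted p = 0.0018). On HFHC the same gene had 3326, 3616 and 2804 in Mdm2 ASO livers and 3398, 3282, 3349 and 3229 in control ASO livers, which overlapped. Rpl10a, a protein of the L1 stalk, had 4440, 4388, 4312, 4368 and 4125 in Mdm2 ASO livers on CDAHFD and 5642, 5727, 5790, 5220 and 5610 in control ASO livers, a log2 fold change of -0.37 ± 0.07 (SE, limma adjusted p = 0.0033). Rpl23a and Rpl10a kept their side of the threshold in all 19 alternatives run on CDAHFD. Rps3, a protein of the mRNA entry channel that also takes part in DNA repair, had 4376, 4238, 3924, 4113 and 4296 in Mdm2 ASO livers and 5301, 5713, 4546, 5324 and 5123 in control ASO livers. Its log2 fold change was -0.31 (limma adjusted p = 0.018), and the call was lost without control ASO replicate 2 or without Mdm2 ASO replicate 8, where the adjusted p reached 0.0556.

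Rps27l, a paralog of Rps27 that is a known p53 target gene and whose product binds MDM2, was the only member that rose on CDAHFD. It had 6717, 7527, 7291, 7148 and 6907 normalized counts in Mdm2 ASO livers, against 5238, 4807, 5393, 4830 and 5340 in control ASO livers. Every Mdm2 ASO library lay above every control ASO library. The log2 fold change was 0.48 ± 0.07 (SE, limma adjusted p = 0.00131), and it stayed past the threshold in all 19 alternatives, with log2 fold changes of 0.43 to 0.50. On HFHC, Rps27l had 3132, 3033 and 3156 in Mdm2 ASO livers and 3209, 3213, 2853 and 3292 in control ASO livers, with a log2 fold change of -0.01 (95% interval -0.18 to 0.15). Rps27 showed the other pattern, with overlapping groups on CDAHFD of 4166, 4343, 3954, 4272 and 4566 in Mdm2 ASO livers and 4030, 3881, 4623, 3951 and 3960 in control ASO livers. The 2 paralogs thus differed between diets in opposite directions, with CDAHFD minus HFHC differences of 0.49 ± 0.10 for Rps27l (limma adjusted p = 0.00124) and -0.53 ± 0.10 for Rps27 (limma adjusted p = 8.9e-04).

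**Figure D3:**
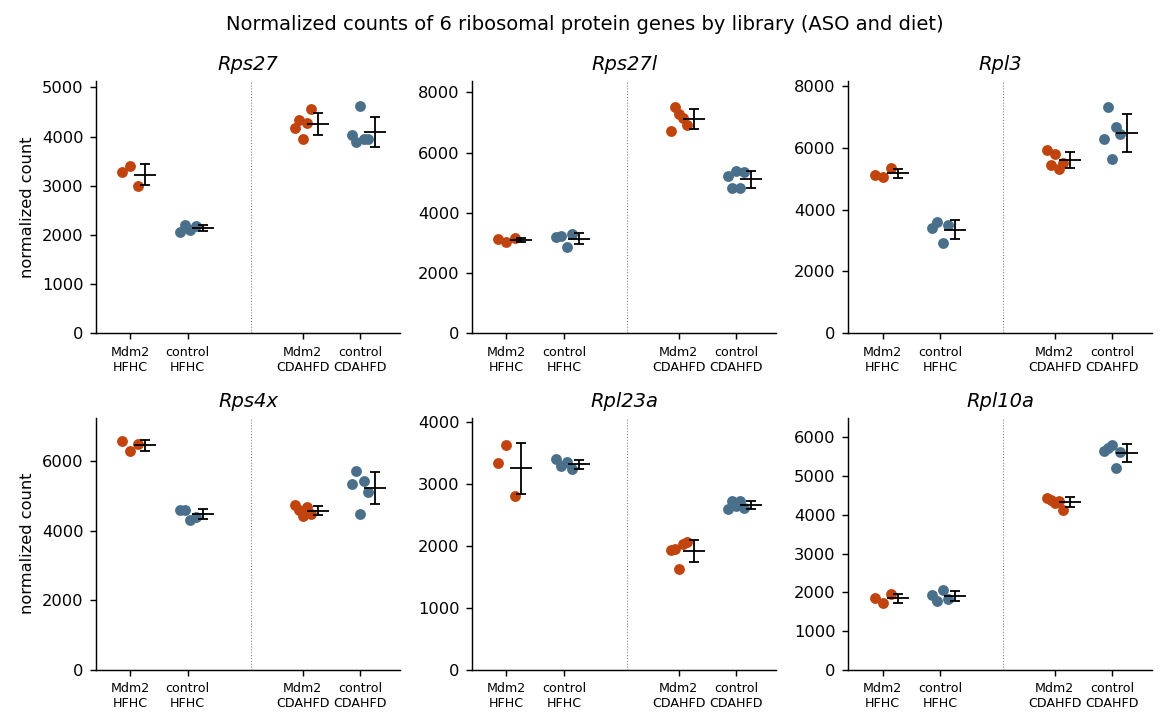
Normalized counts of 6 ribosomal protein genes in each library, by ASO and diet, with the mean and SD in black. The diets were scaled separately, so groups are compared within a diet. Rps27, Rpl3 and Rps4x separate the ASO groups on HFHC, and Rps27l, Rpl23a and Rpl10a on CDAHFD.

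The difference in ASO effect between diets was tested itself, with the HFHC effect subtracted from the CDAHFD effect, over 16333 genes. The effect was lower on CDAHFD in 23 of 77 core genes and higher in 0, against 13.6% lower and 9.83% higher over all genes. At an unadjusted p under 0.05 these counts were 38 and 1, and edgeR called 19 and 0. In either direction 39 of 77 core genes had an unadjusted p under 0.05, against 5719 of all 16333 genes tested. The core median was -0.23, against 0.01 over all genes tested. Library-size scaling moved the calls over all genes to 969 higher and 2676 lower and quantile normalization to 2440 and 1961, against 1606 and 2226, and under these 31 and 29 core genes were lower and 0 higher. The largest core differences were those of Rpl3 (-0.83 ± 0.12, limma adjusted p = 4.8e-05), Rps4x (-0.72 ± 0.10), Rps15a (-0.53 ± 0.10) and Rps27. Rpl3 had 5925, 5452, 5813, 5330 and 5515 normalized counts in Mdm2 ASO livers on CDAHFD and 6280, 7337, 5653, 6670 and 6437 in control ASO livers. Its log2 fold change there was -0.20 and did not pass the threshold (limma adjusted p = 0.115). Of the 31 core genes that rose on HFHC, 15 had a lower effect on CDAHFD, 18 had a positive and 13 a negative log2 fold change there, and 0 passed the threshold there. Their median was 0.03 on CDAHFD and 0.29 on HFHC. These 31 were picked by their rise on HFHC, which by itself raises that median and favours a lower effect on CDAHFD.

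Among the ribosomal proteins known to bind or restrain MDM2 or to act on p53, some rose on HFHC and Rps27l rose on CDAHFD. The list held 15 members, and its counts describe these data only, since it was chosen with earlier results known. On HFHC 6 of the 15 rose (Rps27, Rps26, Rpl5, Rps27a, Rpl26 and Rpl23), 0 fell, and the median log2 fold change was 0.17, against 16.8% that rose over all genes tested. The calls for Rpl23 and Rpl26 were lost without control ASO replicate 2, 4 or 5 or Mdm2 ASO replicate 6-7 or 9, and that for Rps27a without control ASO replicate 5. An unadjusted p under 0.05 was reached by 7 higher and 0 lower, edgeR called 5 higher and 0 lower, and DESeq2 6 and 0. On CDAHFD 1 rose (Rps27l) and 1 fell (Rps3), near the 6.12% and 6.86% over all genes tested. RPL5 and RPL11 act on MDM2 together. Rpl5 had 3301, 3040 and 3004 normalized counts in Mdm2 ASO livers on HFHC and 2664, 2571, 2500 and 2284 in control ASO livers, a log2 fold change of 0.32 (limma adjusted p = 0.0138). Rpl11 had 4063, 4088 and 4055 in Mdm2 ASO livers and 4079, 3872, 3624 and 3574 in control ASO livers. Its log2 fold change was 0.11 with a 95% interval of -0.06 to 0.27, so an increase like that of Rpl5 was not shown. Rpl26, whose product also binds Trp53 mRNA, rose by 0.25 on HFHC and Rpl23 by 0.28. Rpl37 (-0.02), Rps3 (0.06), Rps7 (0.14), Rps14 (0.20), Rps15 (0.12), Rps20 (0.14) and Rps25 (0.17) did not pass the threshold there. The effect was lower on CDAHFD in 5 of the 15, Rpl5, Rpl23, Rps3, Rps7 and Rps27, and higher in Rps27l, against 13.6% lower and 9.83% higher over all genes tested. Of these differences, that of Rps7 passed the threshold in 10 of 23 alternatives.

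Paralogs and other symbols outside the core gave 16 tested genes on HFHC and 15 on CDAHFD. Rpl22l1, the paralog of Rpl22, had 839, 783 and 714 normalized counts in Mdm2 ASO livers on HFHC and 639, 526.5, 448 and 562 in control ASO livers, a log2 fold change of 0.53 (limma adjusted p = 0.0091). Rps4l had 110, 103 and 154 in Mdm2 ASO livers and 441, 384, 229 and 209 in control ASO livers, a log2 fold change of -1.31 ± 0.27 (SE, limma adjusted p = 0.0055). Rps19bp1 had 244, 238 and 216 in Mdm2 ASO livers and 314, 310, 324 and 311 in control ASO livers, a log2 fold change of -0.44 (limma adjusted p = 0.0047). These were the only 2 members that fell on HFHC, and the call for Rps19bp1 was lost under library-size scaling (adjusted p = 0.0503). On CDAHFD, Rps19bp1 had 575, 478, 545, 439 and 474 in Mdm2 ASO livers and 403, 435, 545, 402 and 455 in control ASO livers. Rpl7l1, a relative of Rpl7, held 1048 to 1170 reads in Mdm2 ASO libraries and 978 to 1118 in control ASO libraries on HFHC. The remaining small members held at most 70 reads in any HFHC library, and Rpl10l, a testis-expressed copy, was at 0 in every library of both diets, which allows up to 3 reads per library by counting error alone. Rps12l1 had at most 3 reads and Rpl39l, which was tested on HFHC alone, also had at most 3.

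Covariation of the core genes across libraries was described by a correlation. It set each gene's deviations from its group means against the mean deviation of the core genes. That mean was taken over the other core genes, without the gene itself, and all genes of a library share its depth and scaling. On CDAHFD the median correlation was 0.71 over 10 libraries, highest for Rpl36a (0.97) and lowest for Rps4x (-0.53). On HFHC it was 0.48 over 7 libraries, highest for Rpl23 (0.93) and lowest for Rpl36 (-0.87). The correlation was over 0.5 in 50 of 77 core genes on CDAHFD and in 37 on HFHC. It was not computed for other genes, so covariation is not shown to be particular to the core. Core mRNAs are short, with a median principal transcript of 886 bases. On HFHC, 854 other coding genes of 500 to 1000 bases had a median log2 fold change of -0.16, against 0.20 for the 40 core members of that length. On CDAHFD, coding genes of that length outside the members had a median of 0.10, against -0.02 for the core members.

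Ribosomal protein genes under other symbols, Fau and Rack1, also rose on HFHC. Fau, which encodes a ubiquitin-like fusion with the 40S protein S30, had 4425, 4375 and 5036 normalized counts in Mdm2 ASO livers and 3255, 3453, 3348 and 3401 in control ASO livers, a log2 fold change of 0.45 (limma adjusted p = 0.00195). Rack1, a 40S scaffold protein, rose by 0.26 (limma adjusted p = 0.032), and its call was lost without control ASO replicate 2, 4 or 5 or Mdm2 ASO replicate 9 or 10. On CDAHFD neither gene passed the threshold, with 0 at an unadjusted p under 0.05 and 0 by edgeR or DESeq2.

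The mRNAs for proteins of the mitochondrial ribosome moved the other way on HFHC. Of 77 Mrpl and Mrps genes tested, 31 fell and 0 rose, with a median log2 fold change of -0.23, against 13.8% that fell over all genes tested. Of the 21 of these genes with transcripts of 500 to 1000 bases, 8 fell and the median was -0.29, against 24.6% that fell and a median of -0.14 in 833 other coding genes of that length. Of the 28 with 1000 to 2000 bases, 14 fell and the median was -0.25, against 17.6% and -0.08 in 3295 other coding genes. At an unadjusted p under 0.05, 38 were lower and 1 higher, edgeR called 30 and 0, and DESeq2 31 and 0. Library-size scaling gave 16 that fell and 1 that rose, and quantile normalization 49 and 0. Mrps18a (-0.69), Mrpl16 (-0.67), Mrpl22 (-0.49) and Mrpl10 (-0.40) had the smallest p. On CDAHFD 4 rose, Mrps11, Mrpl41, Mrps7 and Mrps21, and 3 fell, Mrpl50, Mrps22 and Mrpl44, shares below the 6.12% and 6.86% over all genes tested. Each of these calls was lost without control ASO replicate 2, and Mrpl50 alone kept its call in the other 18 of 19 alternatives. Mrps7 and Mrpl44 passed in 7 and 8 of the 19. The difference between diets was higher on CDAHFD in 25 of the 77 and lower in 0, against 9.83% and 13.6% over all genes tested, with 0 lower also at an unadjusted p under 0.05 and by edgeR.

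**Figure D4:**
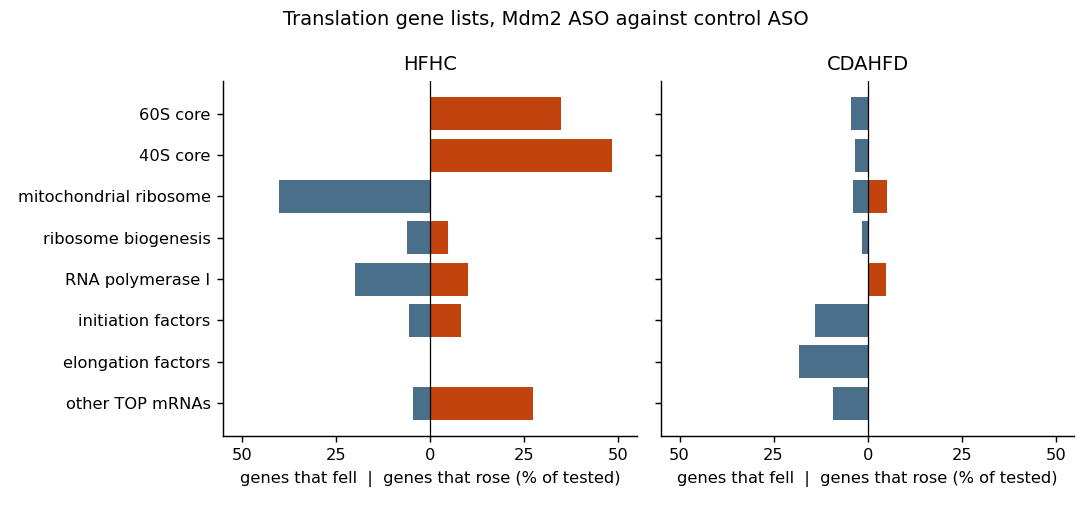
Percentage of tested genes of 8 translation lists that rose (right of 0) or fell (left of 0) in Mdm2 ASO against control ASO livers, by diet. On HFHC the 60S and 40S core bars point right (16 of 46 and 15 of 31) and the mitochondrial ribosome bar points left (31 of 77).

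Other lists of the translation apparatus are read against the 16.8% that rose and 13.8% that fell on HFHC, and the 6.12% and 6.86% on CDAHFD, over all genes tested. Of 11 elongation and termination factors, 0 passed the threshold on HFHC, where 0 were higher and 2 lower at an unadjusted p under 0.05 and edgeR and DESeq2 called 0, while quantile normalization called 2 in each direction and library-size scaling 1 higher. On CDAHFD both release factors, Gspt1 (eRF3, -0.52) and Etf1 (eRF1, -0.30), fell, and Etf1 passed in 12 of 19 alternatives. Among 36 initiation factors, 3 rose on HFHC (Pabpc1, Eif2s1 and Eif3f) and 2 fell (Eif2b4 and Eif6). Pabpc1 passed in all 17 alternatives, and Eif2b4 was lost under library-size scaling and without Mdm2 ASO replicate 9. Eif2s1, Eif3f and Eif6 passed in 11, 12 and 10. On CDAHFD 5 fell, led by Eif6 (-0.51), which keeps free 60S subunits from joining 40S, and Eif3a (-0.40), both in all 19 alternatives. Of 64 ribosome biogenesis genes, 3 rose on HFHC (Tcof1, Ltv1 and Rpf2) and 4 fell. Tcof1 passed in all 17 alternatives and Ltv1 in 11, and Rpf2 passed in 6 and was lost with each single library left out. Among those that fell was Sbds (-0.40), whose product helps release Eif6 from new 60S subunits, and Bccip (-0.44), both in all 17 alternatives. Nop58 was the 1 that fell on CDAHFD, and it passed in 8 of 19 alternatives. Among 20 genes for RNA polymerase I and its factors, Polr1a (0.32) and Rrn3 (0.26), which encode the largest subunit and an initiation factor, rose on HFHC, with Rrn3 lost with each single library left out. Polr2l (-0.69), Polr2f, Polr2e and Polr1c, subunits that RNA polymerase I shares with other polymerases, fell, and Polr2e and Polr1c passed in 12 and 13 of 17 alternatives. On CDAHFD Polr2h rose, in 14 of 19 alternatives. Of 22 other mRNAs described as TOP mRNAs, a list that shares members with those above, 6 rose and 1 fell on HFHC, and 0 rose and 2 fell on CDAHFD.

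Genes that regulate ribosomal protein synthesis gave 4 that rose and 3 that fell of 25 on HFHC, near the 16.8% and 13.8% over all genes tested, with a median log2 fold change of -0.02. Ddit4, an inhibitor of mTORC1 also induced by p53, rose by a log2 fold change of 2.86 ± 0.72 (SE, limma adjusted p = 0.0148). Its log2 fold change ranged over 2.00 to 3.98 in the alternatives, and the call was lost without Mdm2 ASO replicate 9 (adjusted p = 0.0644). Sesn1 (0.51) and Sesn2 (0.47), further inhibitors and p53 targets, rose too, and passed in 13 and 9 of 17 alternatives. Rps6ka1, an S6-directed kinase of the ERK pathway, rose by 0.57. Mtor itself (-0.35), Rheb (-0.28), the activator of mTORC1, and Akt1s1 (-0.36), a subunit that restrains it, fell, and Rheb passed in 11 of 17 alternatives. On CDAHFD Myc (0.98), Rps6kb2 (0.33) and Zfp598 (0.38) rose and 0 fell. These 3 calls passed in 10, 12 and 11 of 19 alternatives, each was lost without control ASO replicate 2 or 4 or Mdm2 ASO replicate 8, and Myc was not called by edgeR or DESeq2.

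Markers of other cells moved with the HFHC comparison, in which 16.8% of all genes tested rose and 13.8% fell. Of 14 leukocyte markers 11 rose and 0 fell, with a median log2 fold change of 2.69, and their summed level was 26827 to 31921 normalized counts in Mdm2 ASO livers and 5221 to 8839 in control ASO livers. Ptprc (CD45) had 3970, 4506 and 3560 in Mdm2 ASO livers, against 500, 463, 352 and 507 in control ASO livers. The summed red cell markers, of which 6 of 6 rose, ranged over 6905 to 16628 in Mdm2 ASO livers and 1879 to 3395 in control ASO livers. Sinusoidal endothelial and stellate markers rose in 5 of 8, with sums of 8440 to 8697 in Mdm2 ASO livers and 4304 to 5112 in control ASO livers. Bile duct markers fell in 4 of 6, with sums of 1890 to 2714 and 3519 to 11314. Of 13 mitochondrially encoded mRNAs, 10 fell. None of these lists held a marker at 0 in every HFHC library. Their part in the ribosomal protein result was not tested. On CDAHFD the summed leukocyte markers were 5394 to 13952 in Mdm2 ASO livers and 6954 to 13502 in control ASO livers. There 0 of 14 passed the threshold, against 6.12% that rose and 6.86% that fell over all genes tested. At an unadjusted p under 0.05, 1 was lower and 0 higher, and edgeR and DESeq2 called 0. Other lists shifted on CDAHFD, with medians of 1.07 for bile duct, 0.61 for red cell and 0.39 for endothelial and stellate markers. In these lists 0 passed the threshold. At an unadjusted p under 0.05, 4 of 6 bile duct markers were higher and 1 lower. The same held for 1 of 5 red cell and 4 of 8 endothelial and stellate markers, all higher. Of 13 mitochondrially encoded mRNAs 1 rose, with a median of 0.35.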

How the data were processed

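RNA from liver was extracted with a column kit and strand-specific mRNA libraries were made, per the labels' protocols. Alignment used STAR 2.7.10b on GRCm39 and genes were counted with featureCounts of Subread 2.0.3, per the submitters' processing notes. Whether counting used strand or shared reads is not given in the sources used here. The deposited values, a signal of TMM-normalized counts by name, are whole reads times 1 constant per library (100% of values within 0.001 of a whole read in all 18 columns). In 2 of the HFHC columns the constant is so near 1 that a separate test did not take recovery as shown, so edgeR and DESeq2 on HFHC rest on the first check alone.

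The fit took genes that reached a value of 1 in 3 (HFHC) or 5 (CDAHFD) libraries. They were fitted with limma-trend on log2(value + 0.5), which understates changes of low genes, over 17441 and 16803 genes. An interaction contrast gave the difference between diets. Rpl10l and Rps12l1 failed the filter on both diets and Rpl39l on CDAHFD, leaving 93 and 92 of the 95 members tested. The members, lists and tests were chosen with earlier results of these data known. Named members were the target, up to 8 called members per diet and direction, the lists of MDM2-binding proteins and paralogs, the 5 leading members per direction of the difference, the 3 highest levels per length, and up to 4 called genes per other list. Genes given by name alone, the values of Ptprc, Rplp0, Rplp2, Rpl13a, Rpl24 and Rps10, and the comparison of mitochondrial ribosome genes by length were chosen after values were seen. Sensitivity of single members was computed for genes called in a comparison and for the MDM2-binding list. Lengths are principal transcripts of GENCODE M21 by Ensembl identifier, a choice made after values on union exon length were seen. Alternatives were pseudocounts, filters, 3 scalings, edgeR, DESeq2, single libraries left out, the identical columns kept apart, and a replicate block. The models were tested on simulated data. Software was R 4.3.3, limma 3.58.1, edgeR 4.0.16, DESeq2 1.42.0 and Python 3.11.15. A few genes are counted in the totals but not reported here by name.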

Additional observations from a re-analysis of the deposited data

Results flagged for a closer look

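The effect of the Mdm2 ASO differed between diets in 26 of 92 members tested, by the interaction contrast (CDAHFD minus HFHC, log2 scale, limma adjusted p under 0.05). Over all 16333 genes tested, 23.5% differed in either direction, so the count itself is not far from that share. Among 60S genes the difference was -0.83 for Rpl3, -0.44 for Rpl34, -0.43 for Rplp0, -0.45 for Rpl5, -0.43 for Rpl10, -0.37 for Rpl4, -0.44 for Rpl23a, -0.35 for Rpl30, -0.34 for Rpl10a, -0.30 for Rpl6, -0.39 for Rpl23, -0.29 for Rpl29, -0.29 for Rpl13 and -0.34 for Rpl9. Among 40S genes it was -0.72 for Rps4x, -0.53 for Rps27, -0.53 for Rps15a, -0.45 for Rps23, -0.37 for Rps3, -0.41 for Rps6, -0.32 for Rps13, -0.35 for Rps9 and -0.34 for Rps7. Outside the core it was 0.49 for Rps27l, 0.60 for Rps19bp1 and 1.35 for Rps4l. All 23 core differences ran the same way, and 5 of these core genes passed the threshold on neither diet alone.

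A single library stood apart from the rest of its group in 8 of the 127 gene and group combinations examined, where chance gives about 1 in 20. Mdm2 was highest, at 861 normalized counts, in Mdm2 ASO replicate 6 on CDAHFD (others 564 to 646), and lowest, at 907, in control ASO replicate 1 on HFHC (others 954 to 963). Rps27a was lowest, at 4550, in Mdm2 ASO replicate 9 on CDAHFD (others 4998 to 5162). Rps27 was highest, at 4623, in control ASO replicate 3 on CDAHFD (others 3881 to 4030), and Rps12 was highest, at 3219.5, in control ASO replicate 1 on HFHC (others 2732 to 2804.5). Genes with few reads gave the remaining 3, Rpl36al at 5.66 in Mdm2 ASO replicate 10 on CDAHFD (others 13.6 to 16.8), Rps3a2 at 12.9 in control ASO replicate 1 on CDAHFD (others 22.9 to 24.3) and Rpl39l at 2.00 in control ASO replicate 5 on HFHC (others 0).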

How the results depend on the processing

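On HFHC the members called, 34, were 17 to 21 with control ASO replicate 4 or 5 or Mdm2 ASO replicate 9 left out, and the core genes that rose, 31, were 14 to 20 with those or Mdm2 ASO replicate 6-7 left out. Core genes that fell, 0, were 1 under quantile normalization, DESeq2, without Mdm2 ASO replicate 6-7 and with the identical columns kept separate. The core median of 0.20 was 0.31 under library-size scaling and 0.26 under quantile normalization, where the median over all genes was 0.10 and -0.11 in place of -0.01. On CDAHFD the members called, 4, were 9 with DESeq2 (core 2 higher and 6 lower) and 8 without control ASO replicate 3, where core genes were 2 higher and 5 lower. Core genes that rose there, 0, were 1 without Mdm2 ASO replicate 9. All genes called there, 2181, were 1232 to 2283 with a library left out, the lowest without control ASO replicate 2 and 1426 without Mdm2 ASO replicate 8. The core median of the difference, -0.23, was -0.34 under library-size scaling and -0.33 under quantile normalization. The members that differed, 26, were 13 with the replicate number as a block, and the core genes lower on CDAHFD, 23, were 11. Replicate numbers were not taken to pair the diets, since 1 of 7 same-numbered pairs had a correlation of deviations over 0.1 (range -0.0659 to 0.105). As a hint from the data and not from the design, 4 of 7 libraries matched their own number best.

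Signs turned in members near 0. On HFHC, library-size scaling gave 0.0927 for Rps27l, 0.0699 for Rpl23a, 0.0707 for Rpl10a and 0.0910 for Rpl37, and quantile normalization 0.0421 for Rps27l, 0.0114 for Rpl23a and 0.0304 for Rpl37. With a library left out, log2 fold changes on HFHC ranged over -0.0596 to 0.0092 for Rps27l, -0.0772 to 0.012 for Rpl10a, -0.118 to 0.065 for Rpl23a and -0.0410 to 0.018 for Rpl37. On CDAHFD, quantile normalization gave -0.0028 for Rps23 and -0.000865 for Rps27a, and with a library left out Rps4l ranged over -0.10 to 0.268 and Rps27a over -0.0091 to 0.0602. The cause was not tested. The core share kept its direction on HFHC in each library left out and with albumin and mitochondrially encoded mRNAs out of the total, an alternative chosen after seeing the data. Few reads limit the small paralogs.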
